A study of Homo sapiens with 8 samples.

Results

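The genes described here are 10 transcription factor genes of the AP-1 and immediate early group in MDA-MB-231 cells: FOS, FOSB, FOSL1, FOSL2, JUN, JUNB, JUND, ATF3, MAFF and EGR1. They were taken by name as a list of AP-1 and immediate early genes, not by a cut on their measured values, although earlier results of these data were known when the list was drawn up, and all 10 were matched by symbol to an Ensembl gene among the 58051 genes counted. Of the 10, 7 passed the minimum for testing, a DESeq2 BaseMean (the mean size-factor-normalised count over all libraries) above 5. FOS, FOSB and ATF3 did not, and are given only by their counts.

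AP-1 is a pair of basic leucine zipper proteins, one from the JUN family (JUN, JUNB, JUND) and usually one from the FOS family (FOS, FOSB, FOSL1, FOSL2) or from the ATF or MAF relatives. JUN proteins can pair with each other, whereas FOS proteins need a JUN partner to bind DNA. FOS, FOSB, EGR1, JUNB and ATF3 are classical immediate early genes, induced within minutes of a growth factor or stress signal without new protein synthesis, and FOSL1 is the FOS protein that is characteristically abundant in triple-negative, mesenchymal breast cancer lines with active RAS and MAP kinase signalling.

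The study asked how human breast cancer cells that lack the assembled succinate dehydrogenase (complex II), but keep the smaller SDHA-containing form that it calls CIIlow, differ from cells with the whole complex and from cells in which SDHA is low as well. MDA-MB-231 is a triple-negative breast cancer line derived from a pleural effusion. There were 2 parental libraries, 3 libraries of SDHBKO cells, made with a TALEN nuclease against exon 1 of SDHB and hygromycin selection, and 3 libraries of SDHBKO SDHAlow cells, made from SDHBKO cells with an shRNA plasmid against SDHA and puromycin selection. Both modified groups therefore lack SDHB and have passed a drug selection that parental cells have not, the SDHBKO SDHAlow cells a further one, and no source used here gives a vector-only library or says whether the SDHBKO line is 1 clone. All cells were harvested untreated, in full medium, at 70% confluency. The labels call the samples biological replicates without naming separate cultures, so the p-values measure the spread between these samples.

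Libraries were 3′-end RNA-seq (QuantSeq), and held 773042 to 1427141 reads on genes each. Levels are counts per 1000000 reads (CPM) after TMM scaling, a correction for differences in library composition, and 3 reads were worth 2.1 to 3.88 CPM before that scaling. SDHA read counts were 64 and 69 in parental cells, 108, 121 and 140 in SDHBKO cells, and 7, 17 and 16 in SDHBKO SDHAlow cells. SDHB gave at most 4 reads in any library, parental libraries included, and its edited exon lies away from the 3′ end that the assay reads, so it checks nothing. All 7 MDA-MB-231 markers (VIM, AXL, CD44, EGFR, SPARC, MSN and CAV1) were present, and ESR1 and PGR were at 0 in every library. Of the epithelial and luminal genes listed as absent from this line, CDH1, EPCAM and FOXA1 gave at most 2 reads in any library. KRT19 (75 to 183 reads), GATA3 (8 to 20 reads) and CLDN3 (1 to 11 reads) were detected, against that label. KRT19 was at 83.4 to 147 CPM, above the 10.8 to 24.1 CPM of SPARC. SDHBKO SDHAlow replicate 2, the deepest library, stood apart from the other replicates of its group (chi-square of counts per degree of freedom 9.17 and 9.78 against them, and 3.02 between them), and FOSL1, JUNB and MAFF are given with and without it below. Without it, more genes were called over the whole table (846, 375 and 173 against 418, 114 and 69 in SDHBKO against parental, SDHBKO SDHAlow against SDHBKO, and SDHBKO SDHAlow against parental cells).

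The levels of the 10 genes spanned a wide range. Since the assay yields about 1 read per transcript end, CPM is not divided by gene length here and can be compared between genes as far as 3′ ends are captured alike. JUND, which is usually expressed in resting as well as in dividing cells, was first at a mean of 966 CPM over the 8 libraries (lowest 798, highest 1158), at the 97.9th percentile of the tested genes. FOSL1 followed at 306 CPM (190.1 to 433), and JUN, the founding member of the family, at 149 CPM (125 to 181). These first 3 ranks did not overlap in any pair of libraries. JUNB and FOSL2 had the same mean of 79.0 CPM, with ranges of 46.3 to 135 and 54.0 to 121, and could not be ordered, and the range of JUNB also reached into that of JUN. MAFF, a small MAF protein with no activation domain, averaged 50.8 CPM (20.8 to 78.8) and overlapped with both FOSL2 and EGR1, a zinc finger factor that averaged 21.5 CPM (16.2 to 39.0).

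FOS, FOSB and ATF3 were at or near the floor in every group. FOS, the prototype FOS protein, had 4 reads in parental replicate 2, 1 read in SDHBKO SDHAlow replicate 1 and 0 in the other 6 libraries. Summed over each group, this was 2.48 CPM, here without TMM scaling, in parental cells (exact 95% Poisson interval 0.676 to 6.36), 0 of 2620982 reads in SDHBKO cells (0 to 1.41, where a count of 0 by the rule of 3 reads allows up to 1.14 CPM), and 0.321 CPM in SDHBKO SDHAlow cells (0.00813 to 1.79). FOSB, its closest relative, gave 2 and 4 reads in parental cells, 1, 2 and 1 in SDHBKO cells and 2, 4 and 2 in SDHBKO SDHAlow cells. It overlaps ERCC1 on the opposite strand, which drew 976 reads over the 8 libraries against 18 for FOSB. The strand setting used for counting is not given in the sources used here, and whether the overlap affected the FOSB count was not tested. ATF3, a stress-induced factor that pairs with JUN proteins, gave 6 and 1 reads in parental cells, 2, 0 and 1 in SDHBKO cells and 2, 2 and 0 in SDHBKO SDHAlow cells. These 3 genes were not tested between groups, and their intervals, which cover counting error only, overlapped.

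**Figure D1:**
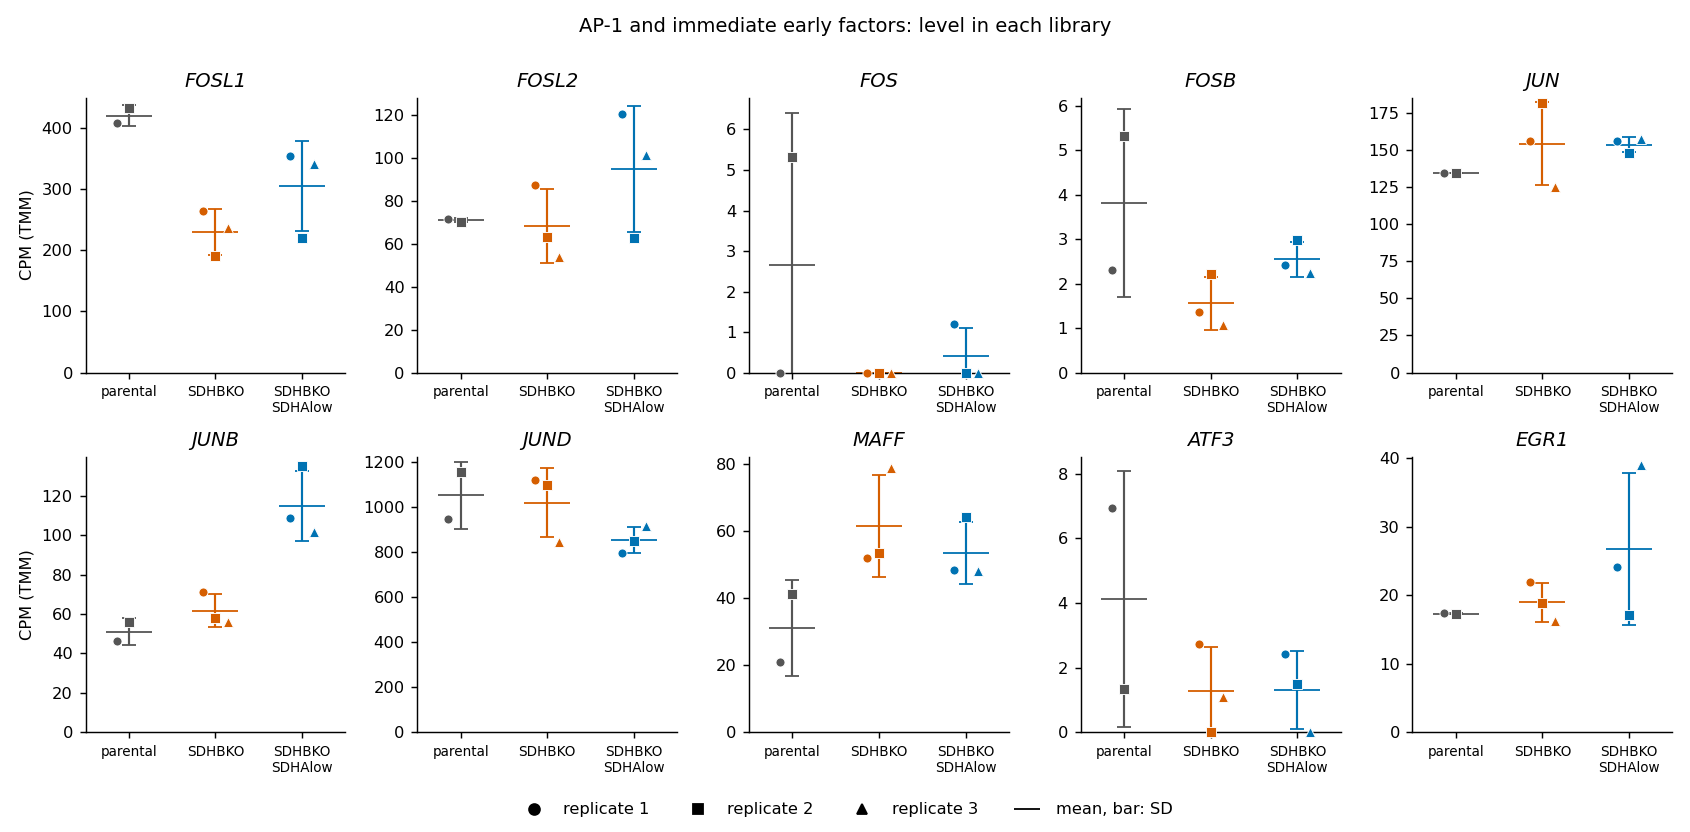
Level of each of the 10 genes in every library, in TMM-scaled CPM on a linear axis that starts at 0 and differs between panels; points are libraries (shape gives the replicate number), horizontal lines group means, and vertical bars 1 SD, drawn down to 0 at the lowest. JUNB lies at 101 to 135 CPM in SDHBKO SDHAlow cells, above the 46.3 to 71.2 CPM of the other groups, and FOSL1 is highest in parental cells at 408 and 433 CPM.

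All members but FOSL1 have an entry in the RefSeq promoter table (GRCh38.p14), 11 entries for 9 genes since ATF3 and MAFF have 2 start sites each. The 250 bases before each start were searched on both strands for TGACG, the core of ATF and CREB sites; for TGACGTCA, the whole palindrome, which contains that core; for TGACATCA, the variant known from the JUN promoter; for TGANTCA, the short AP-1 site; and for the CArG box, the site of serum response factor (SRF). TGACG stood in 8 of the 11 member promoters, of 8 genes (FOS, FOSB, FOSL2, JUN, JUNB, JUND, EGR1 and MAFF), and in 21.2% of all 35116 promoters in the table. The palindrome TGACGTCA was in those of JUND and MAFF (1.65% of all promoters), TGACATCA in those of JUN and ATF3 (2.37%), and the CArG box only in that of EGR1 (1.16%). TGANTCA, present in 6.57% of all promoters, matched none of the 11. For it, and for the CArG box in the searched members other than EGR1, this says only that the letters are not in these windows of 250 bases. Sequence farther upstream was not searched. The windows shown are those of JUNB, the gene that passed the threshold in both comparisons with SDHBKO SDHAlow cells, of JUND and MAFF, which carry the palindrome, of FOS, which the libraries barely detected, and of EGR1 with its CArG boxes. Capitals mark the TGACG core and the TATAA box in JUNB and FOS, the palindrome in JUND and MAFF, and both CArG boxes in EGR1. They lie on GRCh38.p14 at chr19:12791336-12791465 (plus strand, JUNB), chr19:18281773-18281842 (minus strand, JUND), chr22:38201914-38201973 (plus strand, MAFF), chr14:75278748-75278807 (plus strand, FOS) and chr5:138465359-138465428 (plus strand, EGR1). Each is upstream of the start site it was taken from. That of MAFF precedes 1 of its 2 start sites and lies inside the span of the gene, which begins at 38200767.
JUNB: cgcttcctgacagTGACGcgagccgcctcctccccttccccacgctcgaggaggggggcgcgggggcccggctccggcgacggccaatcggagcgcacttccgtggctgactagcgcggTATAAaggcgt
JUND: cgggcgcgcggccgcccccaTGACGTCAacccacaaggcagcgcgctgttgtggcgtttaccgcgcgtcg
MAFF: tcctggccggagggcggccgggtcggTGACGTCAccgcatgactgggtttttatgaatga
FOS: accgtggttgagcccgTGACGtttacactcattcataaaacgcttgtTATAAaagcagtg
EGR1: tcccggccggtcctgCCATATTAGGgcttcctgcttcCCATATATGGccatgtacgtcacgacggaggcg
The core of FOS begins 64 bases before the start and that of JUNB 137 bases before it, whereas the palindromes begin 54 bases (MAFF) and 200 bases (JUND) before theirs. The CArG boxes of EGR1 begin 105 and 83 bases upstream. JUNB, JUND, MAFF and FOS share the TGACG letters, and their mean levels ran from 966 CPM for JUND to 0.815 CPM for FOS.

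The first comparison, SDHBKO against parental cells, sets cells without SDHB, and so without the whole complex II, beside unmodified cells. Loss of SDHB and the hygromycin selection cannot be told apart in it. FOSL1 fell and was the member that passed the threshold, an adjusted p below 0.1. MAFF was higher in every SDHBKO library than in either parental library without passing, and the fitted changes of JUN, JUNB, JUND, FOSL2 and EGR1 lay between -0.07 and 0.27 on the log2 scale.

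FOSL1 (ENSG00000175592, chromosome 11 from 65892049 to 65900573, minus strand, GRCh38), which encodes FRA-1, stood at 408 and 433 CPM in parental cells and at 264, 190.1 and 236 CPM in SDHBKO cells. Every SDHBKO library was below both parental libraries, by 1.83-fold in the fit (log2 fold change -0.87, SE 0.23, adjusted p = 0.05001 by edgeR's quasi-likelihood test with Benjamini-Hochberg adjustment over 7550 genes). In these bulk samples fewer cells expressing the gene and less RNA per cell cannot be told apart. Among all genes tested, 3.14% were called higher in this comparison, 2.4% lower and 5.54% in either direction, against 1 of the 7 members tested. The call was lost when any 1 of the 5 libraries compared was left out (adjusted p 0.419 and 0.282 without parental replicates 1 and 2, and 0.115, 0.115 and 0.142 without SDHBKO replicates 1, 2 and 3), while the log2 fold change stayed between -0.97 and -0.75. With 1 parental library left, few genes of any kind could be called: without parental replicate 1 edgeR called 0 of 7479 genes in this comparison (659 at an unadjusted p below 0.05), and without parental replicate 2 it called 49 of 7592, so calls lost there are not particular to a gene.

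MAFF (ENSG00000185022, chromosome 22 from 38200767 to 38216507, plus strand) was at 20.8 and 41.2 CPM in parental cells and at 52.0, 53.4 and 78.8 CPM in SDHBKO cells. The groups did not overlap, but the parental replicates themselves lay farther apart than the nearest libraries of the groups, and the log2 fold change of 1.00 (SE 0.35, 95% confidence interval 0.28 to 1.73) had an adjusted p of 0.125 by edgeR. It passed the threshold when SDHBKO SDHAlow replicate 2 was left out of the fit (log2 fold change 1.02, adjusted p = 0.0558) or when only these 2 groups were fitted (adjusted p = 0.0771) and in no other alternative that was run. It was at 0.57 (adjusted p = 0.743) without parental replicate 1 and at 1.56 (adjusted p = 0.168) without parental replicate 2.

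The JUN genes, FOSL2 and EGR1 missed the threshold here, with unadjusted p from 0.340 to 0.829 by edgeR. JUNB (ENSG00000171223, chromosome 19 from 12791486 to 12793315, plus strand) was at 46.3 and 55.8 CPM in parental cells and at 71.2, 57.8 and 56.1 CPM in SDHBKO cells, a log2 fold change of 0.27 (95% interval -0.31 to 0.85). JUN (ENSG00000177606, chromosome 1 from 58776845 to 58784048, minus strand) was at 134 CPM in each parental library and at 156, 181 and 125 CPM in SDHBKO cells, which lay on both sides of it. JUND (ENSG00000130522, chromosome 19 from 18279694 to 18281622, minus strand) was at 948 and 1158 CPM in parental cells and at 1119, 1097 and 843 CPM in SDHBKO cells, with a log2 fold change of -0.05 (95% interval -0.47 to 0.38). FOSL2, which encodes FRA-2 (ENSG00000075426, chromosome 2 from 28392448 to 28417317, plus strand), was at 71.7 and 70.4 CPM in parental cells and at 87.6, 63.4 and 54.0 CPM in SDHBKO cells. EGR1 (ENSG00000120738, chromosome 5 from 138465479 to 138469303, plus strand) was at 17.4 and 17.3 CPM against 21.9, 18.9 and 16.2 CPM, and its interval of -0.83 to 1.08 leaves room for a change of either sign. By levels alone, 3 of the 7 members had groups that did not overlap (FOSL1 lower, JUNB and MAFF higher), beside 37.9% of all tested genes, so a separation of this kind was common in this comparison.

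The second comparison, SDHBKO SDHAlow against SDHBKO cells, sets cells with low SDHA beside cells with SDHA, where both lack SDHB. Lowering of SDHA and the shRNA plasmid with its puromycin selection cannot be told apart in it. JUNB rose and no other member passed. FOSL1, FOSL2 and EGR1 had fitted changes between 0.41 and 0.48 on the log2 scale, JUND and MAFF were fitted lower, and JUN was level.

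JUNB went from 71.2, 57.8 and 56.1 CPM in SDHBKO cells to 109, 135 and 101 CPM in SDHBKO SDHAlow cells. Each SDHBKO SDHAlow library was above each SDHBKO library, by 1.88-fold in the fit (log2 fold change 0.91, SE 0.23, adjusted p = 0.0694 by edgeR). Called higher in this comparison were 0.318% of all tested genes, called lower 1.19% and called in either direction 1.51%, against 1 of the 7 members tested. The increase was seen in the raw counts as well, with 52 reads in each of the 3 SDHBKO libraries and 90, 181 and 91 reads in the others. The call did not survive the loss of any of the 8 libraries: the adjusted p was 0.101 without SDHBKO SDHAlow replicate 2, with a log2 fold change of 0.75, and 0.117 to 0.295 without each of the other 7 (parental replicates 1 and 2, SDHBKO replicates 1, 2 and 3, and SDHBKO SDHAlow replicates 1 and 3). Over all genes, 114 were called in this comparison with all 8 libraries. Fewer were called without SDHBKO replicates 1, 2 or 3 (39, 92 and 40) or SDHBKO SDHAlow replicates 1 or 3 (73 and 47). Calls lost in those fits are thus not particular to JUNB. Without SDHBKO SDHAlow replicate 2, 375 genes were called. JUNB overlaps HOOK2 on the opposite strand, which drew 34 reads over the 8 libraries against 600 for JUNB. The strand setting used for counting is not given in the sources used here.

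FOSL1 was at 355, 221 and 342 CPM in SDHBKO SDHAlow cells, and replicate 2 fell among the SDHBKO libraries while the other replicates were above them. The log2 fold change was 0.41 (SE 0.21, 95% interval -0.03 to 0.85, adjusted p = 0.449 by edgeR), and without SDHBKO SDHAlow replicate 2 it was 0.58 and passed (adjusted p = 0.0988). FOSL2 showed the same order of libraries, at 121, 62.7 and 101 CPM, with a log2 fold change of 0.47 (95% interval -0.08 to 1.02). EGR1 was at 24.1, 17.2 and 39.0 CPM, with replicate 2 inside the SDHBKO range and the others above it. In all 3 genes replicate 2 was the lowest library of its group, whereas for JUNB and MAFF it was the highest.

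JUN was at 156, 148 and 157 CPM in SDHBKO SDHAlow cells, a log2 fold change of -0.01 (95% interval -0.43 to 0.42), the smallest of the members. JUND was at 798, 849 and 914 CPM, of which the lowest lies under every SDHBKO library, with a log2 fold change of -0.26 (95% interval -0.63 to 0.12). MAFF was at 48.3, 64.2 and 47.9 CPM, and stayed within reach of the SDHBKO libraries (log2 fold change -0.19, 95% interval -0.78 to 0.40). JUNB was the 1 member whose groups did not overlap, beside 17.4% of all tested genes.

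The third comparison, SDHBKO SDHAlow against parental cells, shares its libraries with the first and second and adds no independent samples. JUNB was again the member past the threshold, at 109, 135 and 101 CPM against 46.3 and 55.8 CPM, a 2.27-fold difference (log2 fold change 1.18, SE 0.27, adjusted p = 0.0696 by edgeR). Called higher here were 0.225% of the genes tested, called lower 0.689% and called in either direction 0.914%, against 1 of the 7 members tested. The call held without SDHBKO SDHAlow replicate 2 (log2 fold change 1.04, adjusted p = 0.0650 by edgeR). It was lost without SDHBKO SDHAlow replicate 1 (adjusted p = 0.172 by edgeR). Over all genes, 8 of 7576 were called in that fit, against 69 with all 8 libraries, so the loss is not particular to JUNB. The call was also lost with 1 parental library left, at a log2 fold change of 1.04 without parental replicate 1 and 1.31 without parental replicate 2. FOSL1 was at a log2 fold change of -0.46 (95% interval -0.94 to 0.02, adjusted p = 0.427), and all 3 SDHBKO SDHAlow libraries were below both parental ones. MAFF was at 0.81 (95% interval 0.09 to 1.53, adjusted p = 0.337), again with no overlap. JUN higher and JUND lower completed the 5 of 7 members whose groups did not overlap, beside 30.7% of all tested genes, and with log2 fold changes of 0.19 and -0.30 neither passed the threshold.

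**Figure D2:**
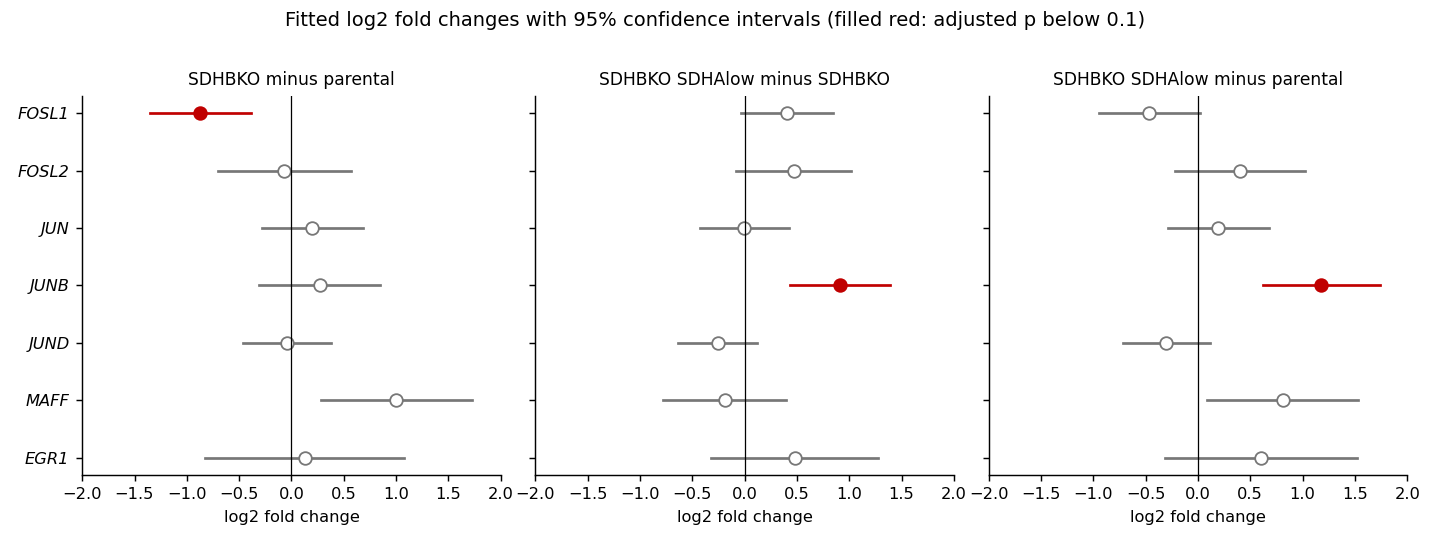
Fitted log2 fold changes (horizontal axis, 0 marked) of the 7 tested members in the 3 comparisons, with 95% confidence intervals from edgeR's quasi-likelihood fit; filled red points have an adjusted p below 0.1. FOSL1 (-0.87) is the filled point of SDHBKO against parental cells, and JUNB (0.91 and 1.18) that of the other comparisons.

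The make-up of each family can be read within a library, where depth and scaling cancel. FOSL1 and FOSL2 made up nearly all FOS family reads. FOSL1 gave 84.7% and 84.2% of them in parental libraries, 74.8%, 74.3% and 81.1% in SDHBKO libraries, and 74.1%, 77.1% and 76.8% in SDHBKO SDHAlow libraries. Both modified groups were thus below the parental one, at means of 76.8% ± 3.8 (SD, n = 3) and 76.0% ± 1.7 (SD, n = 3) against 84.4% ± 0.29 (SD, n = 2). The share of FOSL2 was 22.7% and 23.3% against 14.3%. Its mean level was 68.3 CPM in SDHBKO and 94.9 CPM in SDHBKO SDHAlow cells against 71.0 CPM in parental cells. In SDHBKO cells its share was thus larger without a higher level. The summed FOS family level was 498 ± 22.1 CPM (SD, n = 2) in parental cells, 300.02 ± 49.2 CPM (SD, n = 3) in SDHBKO cells and 404 ± 103 CPM (SD, n = 3) in SDHBKO SDHAlow cells.

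In the JUN family JUND gave most reads, 84.0% and 85.9% in parental libraries, 82.1% to 83.1% in SDHBKO libraries and 75.0% to 77.9% in SDHBKO SDHAlow libraries. JUNB went the other way, at 4.1% in each parental library, 5.3%, 4.3% and 5.5% in SDHBKO libraries and 10.2%, 11.9% and 8.7% in SDHBKO SDHAlow libraries. Its mean share was 10.3% ± 1.6 (SD, n = 3) in SDHBKO SDHAlow cells against 5.0% ± 0.62 (SD, n = 3) in SDHBKO cells, while the summed JUN family level was 1122 ± 55.8 CPM (SD, n = 3) against 1236 ± 183 CPM (SD, n = 3).

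The ratio of FOSL1 to JUNB reads combined both shifts. It was 8.83 and 7.76 in parental libraries, 3.71, 3.29 and 4.21 in SDHBKO libraries, and 3.27, 1.64 and 3.37 in SDHBKO SDHAlow libraries. The parental libraries stood clear of the rest, whereas SDHBKO SDHAlow replicates 1 and 3 were inside or at the edge of the SDHBKO range and replicate 2 was far below it. The ratio of JUNB to JUND reads was 0.0488 and 0.0482 in parental libraries, 0.0636, 0.0527 and 0.0666 in SDHBKO libraries and 0.136, 0.159 and 0.111 in SDHBKO SDHAlow libraries, with no overlap between any of the 3 groups. JUNB to JUN reads were 0.345 and 0.416, then 0.456, 0.319 and 0.448, then 0.698, 0.914 and 0.645, so that JUN remained above JUNB in all 8 libraries and the parental and SDHBKO values overlapped. These ratios use the genes that passed the threshold and were not tested.

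The genes around AP-1 were taken from lists drawn up with earlier results of these data known. The lists held other basic leucine zipper factors, other immediate early genes, and RAS proteins and MAP kinases with their feedback inhibitors. They also held factors that act on immediate early promoters, and textbook AP-1 targets. SRF, which binds CArG boxes and drives FOS and EGR1 after serum, differed in opposite directions in the first and second comparisons. It was at 750 and 730.1 CPM in parental cells, 389, 429 and 314 CPM in SDHBKO cells and 790.5, 786 and 799 CPM in SDHBKO SDHAlow cells. It fell in the first comparison (log2 fold change -0.97, SE 0.20, adjusted p = 0.0124) and rose in the second (1.07, SE 0.18, adjusted p = 0.00481), both by edgeR. The second call held without each library in turn (adjusted p up to 0.0608) and the first was lost without parental replicate 1 (0.294) or 2 (0.136), where the log2 fold change was -0.96 and -0.99. EGR1, whose promoter carries the CArG boxes, was at a mean of 17.3 CPM in parental cells, 19.0 CPM in SDHBKO cells and 26.8 CPM in SDHBKO SDHAlow cells, and passed in none of the comparisons. Called lower over all tested genes were 2.4% in the first comparison, and called higher were 0.318% in the second. SRF was 1 of 5 tested genes of its list of 10. The median log2 fold change of those 5 was -0.29 in the first comparison and 0.64 in the second, where all 5 were fitted higher, beside -0.00072 and 0.01 over all tested genes.

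Among other immediate early genes, 20 of 30 passed the minimum, and IER3, IER5 and PHLDA1 rose in SDHBKO against parental cells. IER3, a stress-inducible survival gene, was at 1077 and 1119 CPM in parental cells and at 3507, 2302 and 2658 CPM in SDHBKO cells (log2 fold change 1.36, SE 0.25, adjusted p = 0.00820 by edgeR). IER5, an activator of heat shock factor, had a log2 fold change of 0.73 (SE 0.22, adjusted p = 0.0839), and PHLDA1, a pleckstrin homology protein, 0.81 (SE 0.23, adjusted p = 0.0634). The median of the 20 was 0.24 in this comparison, with 14 fitted higher and 6 lower, beside -0.00072 over all tested genes. Of all tested genes, 3.14% were called higher in this comparison. EGR2, EGR3, NR4A1 and ZFP36, which like FOS are induced transiently, were among the 10 genes below the minimum. The IER3 call was lost without parental replicate 1 (log2 fold change 1.33, adjusted p = 0.287) or 2 (1.39, adjusted p = 0.119), and those of IER5 and PHLDA1 without any 1 of the 5 libraries compared (0.109 to 0.582 and 0.111 to 0.544).

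The feedback inhibitors of MAP kinase signalling gave DUSP4, a nuclear phosphatase of ERK, which was 106 and 110.2 CPM in parental cells, 311, 248 and 256 CPM in SDHBKO cells and 152, 160.4 and 109 CPM in SDHBKO SDHAlow cells. It rose in the first comparison (log2 fold change 1.32, SE 0.24, adjusted p = 0.00820 by edgeR) and fell in the second (-0.94, SE 0.21, adjusted p = 0.0270). It was 1 of 12 tested genes of that list in each, and their median log2 fold change was 0.02 in both comparisons. Of all tested genes, 3.14% were called higher in the first comparison and 1.19% lower in the second. The first call was lost without parental replicate 1 (log2 fold change 1.29, adjusted p = 0.284) or 2 (1.35, adjusted p = 0.113), and the second without SDHBKO replicate 1 (0.166) or SDHBKO SDHAlow replicate 3 (0.210). Among the 18 tested RAS proteins and kinases NRAS, a RAS GTPase upstream of AP-1, was lower in both modified groups. It had 42 and 13 reads in parental libraries, 1 to 4 in SDHBKO libraries and 4 to 8 in SDHBKO SDHAlow libraries, with log2 fold changes of -3.34 (SE 0.62, adjusted p = 0.00820) and -2.56 (SE 0.56, adjusted p = 0.0575) by edgeR. The parental libraries themselves differed widely for NRAS, and without parental replicate 1 neither difference passed (log2 fold change -2.41, adjusted p = 0.420, and -1.63, adjusted p = 0.873). Without SDHBKO SDHAlow replicate 1 the second also missed (adjusted p = 0.191 by edgeR). Called lower over all tested genes were 2.4% in SDHBKO against parental cells and 0.689% in SDHBKO SDHAlow against parental cells.

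Of the other leucine zipper factors, 12 of 23 were tested. Over all tested genes, 3.14% were called higher in SDHBKO against parental cells and 1.19% lower in SDHBKO SDHAlow against SDHBKO cells. ATF5, a stress-response factor of the ATF4 branch, rose in SDHBKO cells from 32.4 and 30.5 CPM to 126, 67.8 and 75.5 CPM (log2 fold change 1.496, SE 0.32, adjusted p = 0.0171 by edgeR), a call lost without parental replicate 1 (adjusted p = 0.313), parental replicate 2 (0.168) or SDHBKO replicate 1 (0.111). ATF4, the effector of the integrated stress response, fell from SDHBKO cells (315, 236 and 326 CPM) to SDHBKO SDHAlow cells (156, 188 and 164 CPM), with a log2 fold change of -0.78 (SE 0.20, adjusted p = 0.0750). That call held only without SDHBKO replicate 2 or SDHBKO SDHAlow replicate 2, and was at 0.133 to 0.303 without each of the other 6. The median of the 12 was 0.25 in the first comparison and -0.08 in the second, beside -0.00072 and 0.01 over all tested genes.

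Of the 25 textbook AP-1 targets, 14 were tested. Called higher over all tested genes were 3.14% in the first comparison and 0.318% in the second, where 1.19% were called lower. IL11, a cytokine gene, rose in the first comparison and fell in the second, and MMP3 (stromelysin) rose in the second. IL11 was at 5.78 and 22.6 CPM in parental cells, 64.3, 53.4 and 42.1 CPM in SDHBKO cells and 26.6, 18.7 and 11.1 CPM in SDHBKO SDHAlow cells. IL11 had log2 fold changes of 1.93 (SE 0.48, adjusted p = 0.0355) and -1.498 (SE 0.39, adjusted p = 0.0750) by edgeR. MMP3 rested on 0 to 3 reads in SDHBKO libraries and 10 to 14 in SDHBKO SDHAlow libraries (log2 fold change 2.82, SE 0.75, adjusted p = 0.0867). The median of the 14 was 0.06 in the first comparison (7 fitted higher, 7 lower), 0.01 in the second (8 higher, 6 lower) and 0.39 in the third (9 higher, 5 lower), beside 0.02 over all tested genes in the third. The first call of IL11 ended without parental replicate 1 (log2 fold change 1.22, adjusted p = 0.514) or SDHBKO replicate 1 (0.146), and without parental replicate 2 the log2 fold change was 3.165 (adjusted p = 0.0519), and the second without SDHBKO replicates 1 (0.312), 2 (0.156) or 3 (0.134) or SDHBKO SDHAlow replicate 3 (0.286). The MMP3 call was lost in each of the 5 fits without a library that kept it above the minimum (0.130 to 0.302), and its log2 fold change was 3.99 without SDHBKO replicate 3.

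**Figure D3:**
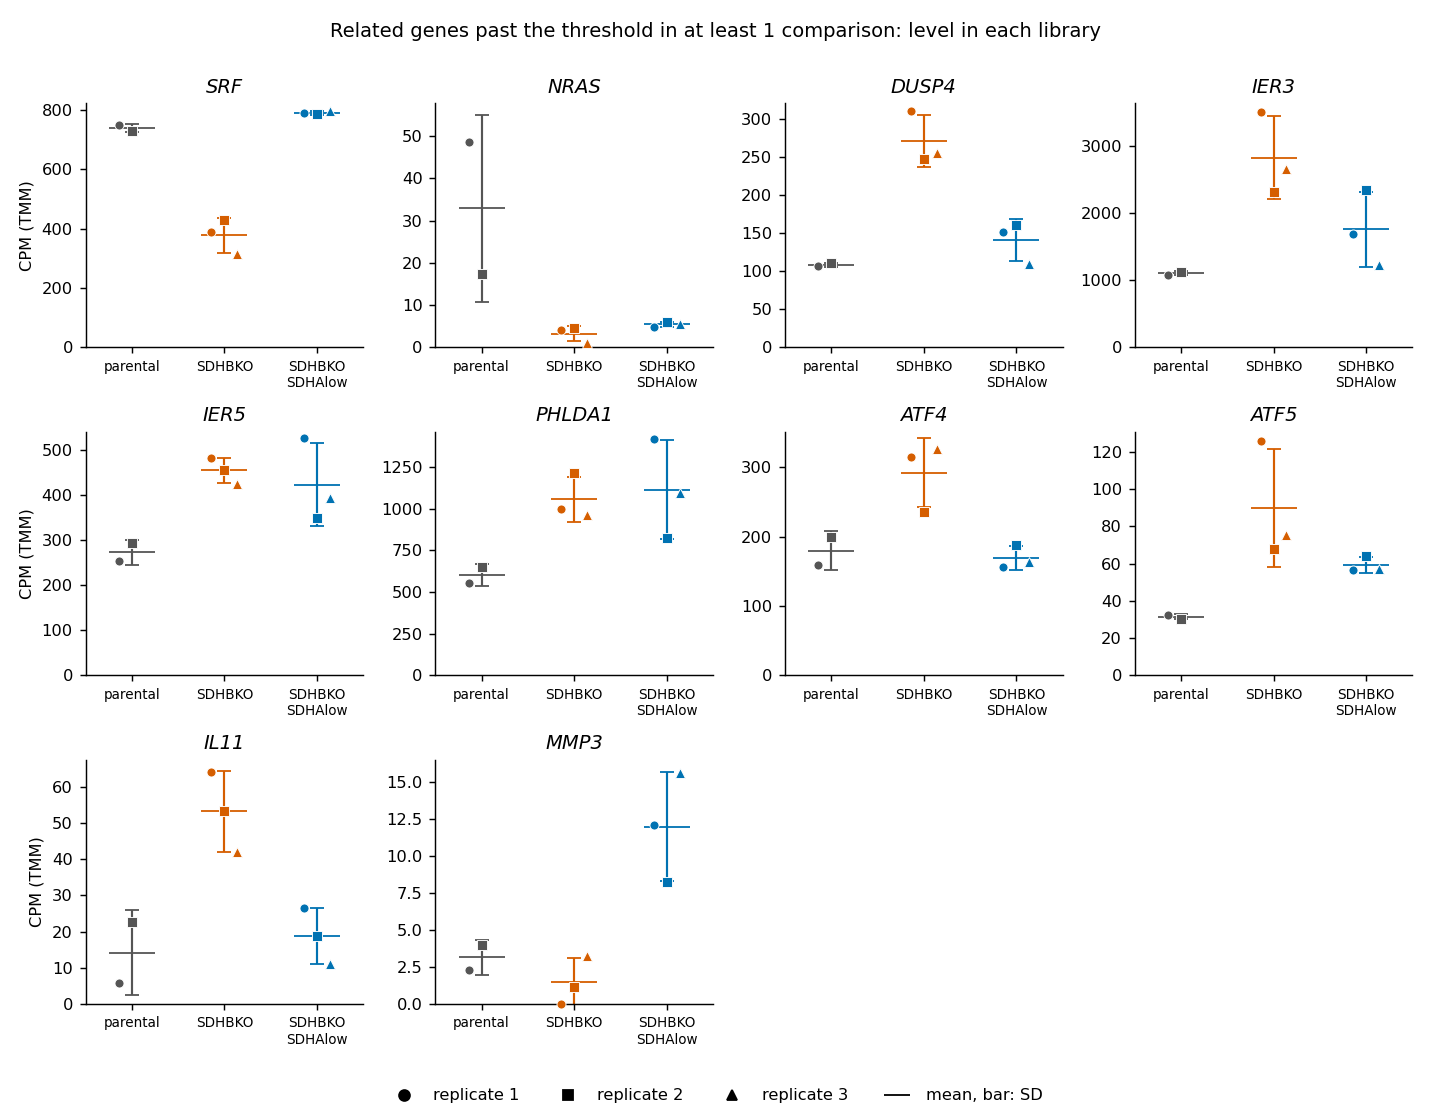
Level in every library of 10 listed genes around AP-1 that passed the threshold in at least 1 comparison, in TMM-scaled CPM on linear axes that start at 0; points are libraries, horizontal lines group means, vertical bars 1 SD, drawn down to 0 at the lowest. SRF is at 314 to 429 CPM in SDHBKO cells against 730.1 to 799 CPM in the other groups, and DUSP4 is at 248 to 311 CPM against 106 to 160.4 CPM.

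For FOSL1, JUNB and JUND the tested genes of most similar pattern were taken by Pearson's r of log2 CPM over the 8 libraries, as a description without a test. They were TMEM131, NIPSNAP2 and DDX28 for FOSL1 (r = 0.99, 0.96 and 0.95), ILKAP, PPP1R13L and SLC43A3 for JUNB (0.96, 0.95 and 0.94), and ADM5, SPOCD1 and CCS for JUND (0.95, 0.94 and 0.92). None of these 9 is a basic leucine zipper gene. With 8 libraries in 3 groups these values share depth and group differences, and each was picked as the highest among 7550 genes. Among the members, the highest value was 0.76 between FOSL2 and EGR1, and FOSL1 stood at -0.70 with MAFF and -0.17 with JUNB.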

How the data were processed

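Total RNA of 8 MDA-MB-231 samples (2 parental, 3 SDHBKO, 3 SDHBKO SDHAlow) had been made into QuantSeq 3′ libraries. The authors filtered reads with Trimmomatic, removed ribosomal and mitochondrial reads, aligned to GRCh38 (release 87) and deposited raw read counts per gene from STAR 2.5.2b, which were used here. They also deposited a normalised signal, counts divided by a DESeq2 size factor for each sample. Its values for SDHBKO replicate 1 match the raw counts of replicate 3 and the reverse, and nothing else was taken from it.

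The raw counts were fitted with edgeR 4.0.16 (R 4.3.3) in 1 quasi-likelihood model of all 8 samples, with TMM scaling, 5 residual degrees of freedom, and Benjamini-Hochberg adjustment over the 7550 of 58051 genes with BaseMean above 5. The threshold of 0.1 follows the study's methods. STAR's 4 summary lines (unmapped, multimapping, unassigned and ambiguous reads), 18.8% to 28.6% of each file, were left out of library sizes. Sampling error of low counts limits precision: 3 reads are 2.1 to 3.88 CPM, and the biological coefficient of variation was 21.5%. Alternatives were DESeq2 1.42.0, DESeq2 size factors, other filters on low counts, a threshold of 0.05, 2-group fits, a replicate block, each sample left out in turn, and a GC correction added after the data were seen. Positions are from GENCODE on GRCh38. Promoter letters are from RefSeq.

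The members and all gene lists were chosen with earlier results of these data known. Named are all members, each listed gene called in at least 1 comparison (except 1 that is not reported here), the 3 tested genes of highest r with each called member and with the member of highest level, and SDHA and SDHB as targets. No set test was run.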

Additional observations from a re-analysis of the deposited data

How the results depend on the processing

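The 3 comparisons each called 1 member, and the calls rest on few libraries. With the threshold at 0.05, 0 members were called in each comparison by edgeR, FOSL1 missing at an adjusted p of 0.05001. Over all genes, 171, 64 and 13 of 7550 passed that threshold. With only the 2 groups compared in the fit, 2 members were called in SDHBKO against parental cells (FOSL1 and MAFF) and 0 in each of the other comparisons, where JUNB was at adjusted p = 0.117 and 0.144. With single libraries left out, the number of members called ran from 0 to 2 in SDHBKO against parental cells, and from 0 to 1 in each of the other comparisons. Calls over all genes in those fits moved too, from 0 to 846 in SDHBKO against parental cells. Where a group was left with 1 library, that library was assumed to vary like the other groups. DESeq2, its size factors in edgeR, both other filters on low counts and the GC correction kept the 1 call in each comparison.

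The sample numbers gave no sign of pairing. Over 7 pairs with the same number the mean correlation of deviations from the group means was -0.070 (-0.270 to 0.093). Of 8 samples, 1 correlated best with its own number. This cannot show that samples were unpaired, since the numbers of SDHBKO replicates 1 and 3 differ between the deposited files. Deviations from means of 2 or 3 libraries also depend on each other. With the replicate block FOSL1 stayed past the threshold in SDHBKO against parental cells (adjusted p = 0.0733), and 0 members were called in the other comparisons (JUNB at 0.169 and 0.185). Over all genes it called 199, 59 and 12, against 418, 114 and 69 without it. Among the related genes, the block ended the calls of IER5 (adjusted p = 0.156) and PHLDA1 (0.131) in SDHBKO against parental cells, ATF4 (0.188), IL11 (0.117) and MMP3 (0.151) in SDHBKO SDHAlow against SDHBKO cells, and NRAS (0.219) in SDHBKO SDHAlow against parental cells. The 2-group fits did so for ATF4 (0.132), MMP3 (0.128) and, against parental cells, NRAS (0.143). MMP3 also missed with 1 of the other filters on low counts (adjusted p = 0.102 by edgeR). DESeq2 gave no adjusted p for NRAS, for MMP3 in SDHBKO SDHAlow against SDHBKO cells, or for IL11 in SDHBKO against parental cells.

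Without SDHBKO SDHAlow replicate 2, 8 more listed genes were called in SDHBKO against parental cells. They were ARAF (log2 fold change -0.86), ARC (1.70), ATF4 (0.72), DUSP14 (0.88), HMOX1 (1.18), MAPK3 (0.75), PLAUR (0.82) and TGFB1 (1.48). In SDHBKO SDHAlow against SDHBKO cells 4 more were called, ARC (log2 fold change -2.10), IER3 (-0.98), ELK3 (1.88) and ZFP36L1 (0.74), and against parental cells 4, DUSP14 (1.03), IER5 (0.75), PHLDA1 (1.06) and ZFP36L1 (0.89). These were named after their values were seen.

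Small uncalled changes turned sign. JUN in SDHBKO SDHAlow against SDHBKO cells was at a log2 fold change of 0.0090 without a filter on low counts and 0.0050 with the replicate block, and at -0.15 to 0.13 with single libraries left out (above 0 without SDHBKO replicates 1 or 2 or SDHBKO SDHAlow replicate 2). In SDHBKO against parental cells, FOSL2 ran from -0.27 to 0.10 (above 0 without SDHBKO replicate 3) and JUND from -0.19 to 0.10 (above 0 without parental replicate 2 or SDHBKO replicate 3). MAFF in SDHBKO SDHAlow against SDHBKO cells ran from -0.38 to 0.023 (above 0 without SDHBKO replicate 3). The cause was not tested. The parental JUN level was 133.7 CPM with DESeq2 size factors against 134.1 CPM.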
